A study of Mus musculus with 35 samples.

Results

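The 7 genes that encode the interleukin-2 (IL-2) receptor chains and the first signal carriers behind them, Il2ra, Il2rb, Il2rg, Jak1, Jak3, Stat5a and Stat5b, were followed through mouse cytotoxic T lymphocytes (CTLs) kept at 3 extracellular pH values with or without IL-2. They were taken as a list of genes by symbol, with earlier results of these data known, and are 7 of the 48709 genes in the count tables. All 7 passed the filter on low counts that left 13819 genes for testing, with counts per library from 771 (Stat5a) to 101151 (Jak1). The cells were OT-I CTLs, CD8+ T cells that carry a transgenic T-cell receptor against an ovalbumin peptide, so they are a single-specificity model in culture. Splenic CD8+ T cells had been isolated by negative selection, stimulated with antibodies to CD3 and CD28, and expanded with IL-2, which all groups therefore share as a history. The 35 libraries make 7 groups of 5 biological replicates: CTLs taken at 0 h, and CTLs cultured for 24 h with 200 IU/mL of murine IL-2 or with none, in medium of pH 7.4, pH 7 or pH 6.6. The medium was acidified with hydrochloric acid, and dead cells were removed on a density gradient before RNA was taken.

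IL-2 is a growth and survival factor of activated T cells. Its receptor is built from an alpha chain (CD25, Il2ra) that raises the affinity for IL-2 but carries no signal, a beta chain (CD122, Il2rb) that is shared with the receptor for IL-15, and the common gamma chain (CD132, Il2rg) that is shared with the receptors for IL-4, IL-7, IL-9, IL-15 and IL-21. The beta chain binds the tyrosine kinase JAK1 and the gamma chain binds JAK3. When IL-2 joins the chains, the kinases phosphorylate the receptor tail and the transcription factors STAT5A and STAT5B, which move to the nucleus and act on survival, cell cycle and cytotoxic genes. Il2ra is itself known as a gene that IL-2 and STAT5 raise in T cells.

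The promoters of Il2ra and Jak1 are shown because these were the members whose response to pH differed with IL-2. Both are printed 5′ to 3′ on the strand of the gene, from RefSeq on GRCm38.p6. The Il2ra stretch ends at the base before the RefSeq start. That of Jak1 was cut at the base before the first exon base of the gene in GENCODE. In the Il2ra promoter (chr2:11642542-11642791, plus strand) the capitals mark 2 overlapping matches to NF-kB-type letters (GGG, then 5 bases of any kind, then CC). The first match fits on both strands and the second on the minus strand only.
Il2ra: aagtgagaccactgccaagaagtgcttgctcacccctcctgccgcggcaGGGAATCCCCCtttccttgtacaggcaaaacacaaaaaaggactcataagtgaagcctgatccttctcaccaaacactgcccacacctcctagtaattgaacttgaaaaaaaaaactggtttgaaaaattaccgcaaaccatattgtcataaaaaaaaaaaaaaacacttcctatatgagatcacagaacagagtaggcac
In the Jak1 promoter (chr4:101265283-101265473, minus strand) the capitals mark the cAMP response element TGACGTCA and, after it, 1 match to the NF-kB-type letters.
Jak1: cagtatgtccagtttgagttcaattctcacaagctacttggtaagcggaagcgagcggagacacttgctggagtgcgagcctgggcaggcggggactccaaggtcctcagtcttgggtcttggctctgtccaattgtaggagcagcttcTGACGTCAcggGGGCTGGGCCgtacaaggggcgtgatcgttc

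The search covered both strands of 32851 RefSeq promoters of 300 bases, of which 8 belong to 6 of the members (Il2rb had no entry). TGACGTCA was found in 1.79% of all promoters and in 1 of the 8, that of Jak1. The NF-kB-type letters were found in 50.8% of all promoters and in 5 of the 8. The STAT-type letters TTCNNNGAA were in 8.30% of all promoters and in 0 of the 8, and the E-box CACGTG in 7.15% and in 0 of the 8. These matches describe letters in a short window only.

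The deposited tables held between 16721319 and 34033340 reads counted in genes per library (median 24730020). Alignments to more than 1 place were 32.8% to 48.3% of all entries in the count tables, which need not equal a share of reads. The highest share belonged to replicate 5 at 0 h, which stood apart. The defining T-cell genes Cd3e, Cd8a and Cd8b1 were high in every group, with group means of 411 CPM (counts scaled to a common library size) or more for Cd3e, 719 or more for Cd8a and 236 or more for Cd8b1, while Cd4 stayed at a mean of 1.79 CPM or less. The list of 7 CD8 T-cell and CTL markers also holds Cd3d, Cd3g, Gzmb and Prf1. Its sum had a median of 10241 CPM at pH 7.4 and 3994 CPM at pH 6.6 with IL-2. Without IL-2 the medians were 3159 and 2442 CPM. Gzmb, whose values are given below, carried most of the sum at pH 7.4 with IL-2 and fell at pH 6.6. Of the genes of this list, 2 were called higher and 2 lower at pH 6.6 with IL-2 (median log2 fold change -0.02). Without IL-2 1 was higher and 6 were lower (median log2 fold change -0.46). The shares of all tested genes were 35.4% higher and 40.9% lower with IL-2, and 31.6% and 35.4% without. The other-cell lists summed to little: 0.00 to 5.50 CPM for Cd4 plus Foxp3, 1.02 to 6.10 for 4 B-cell genes (Ms4a1 at 0 throughout), 2.30 to 25.6 for 5 myeloid genes, 8.27 to 94.96 for 2 NK-cell genes and 0.00 to 0.235 for 2 globin genes. Among the myeloid genes Lyz2, Csf1r and Adgre1 had means below 0.08 CPM, and Itgax carried the sum; it was 2.996 CPM at pH 7.4 with IL-2, 8.69 CPM at pH 6.6 with IL-2, and without IL-2 it was 18.2 CPM at pH 7.4. Klrb1c carried the NK sum and had its highest mean at 0 h, 89.0 CPM. These values moved with the conditions, and their part in the results was not tested. In bulk RNA of this kind, fewer cells of a type and less RNA per cell cannot be told apart.

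**Figure D1:**
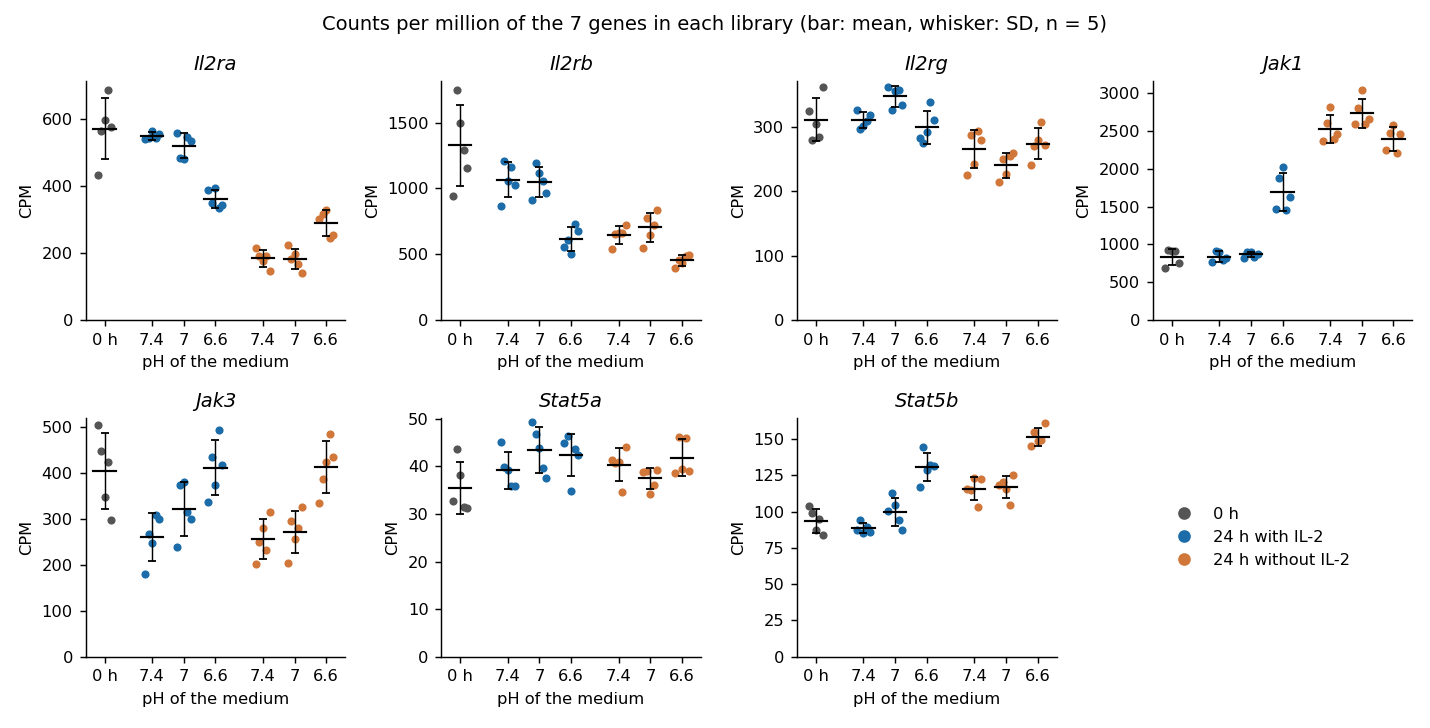
Level of each of the 7 genes in CPM (linear axis from 0) against the pH of the medium; each point is a library, coloured by presence or absence of IL-2, the bar is the mean and the whisker the SD of 5 replicates. Il2ra with IL-2 sits at 539 to 565 CPM at pH 7.4 and at 334 to 394 at pH 6.6, while without IL-2 it goes from 146 to 216 up to 244 to 328; Jak1 with IL-2 goes from 773 to 920 up to 1450.2 to 2018.

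At pH 6.6 with IL-2, mRNA for the alpha and beta chains was lower in CPM than at pH 7.4 with IL-2. That for JAK1, JAK3 and STAT5B was higher. Here and below, more or less mRNA means a level in CPM, and amounts per cell cannot be read from it. Il2ra was 1.52-fold and Il2rb 1.72-fold lower, Jak1 1.999-fold, Jak3 1.59-fold and Stat5b 1.48-fold higher, while Il2rg and Stat5a did not pass the test. So 5 of the 7 members were called (3 higher, 2 lower) at an adjusted p of 0.05 by edgeR's quasi-likelihood test with Benjamini-Hochberg adjustment, where 76.3% of all tested genes were called (35.4% higher, 40.9% lower). The median log2 fold change was 0.12 over the members and -0.07 over all tested genes. In the 5 called members the groups did not overlap, as was so for 59.2% of all tested genes. Such shares near the background say nothing particular of these members as a set.

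Without IL-2 the same drop in pH gave another picture for 2 of them. Il2ra was 1.57-fold higher in the acid medium, and Jak1 did not pass the test. Il2rb was again lower (1.42-fold), and Jak3 (1.61-fold) and Stat5b (1.31-fold) again higher, so 4 members were called (3 higher, 1 lower) against 67.0% of all tested genes (31.6% higher, 35.4% lower). The groups did not overlap in 4 members, against 47.4% of all tested genes. The difference between both pH responses was tested as an interaction, which called Il2ra and Jak1 among the members, 2 of 7, against 67.0% of all tested genes.

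IL-2 at pH 7.4 went with more mRNA for Il2ra and Il2rb, by less for Il2rg, and with less for Jak1 and Stat5b. With IL-2, Il2ra was 2.99-fold, Il2rb 1.64-fold and Il2rg 1.17-fold higher, while Jak1 was 3.01-fold and Stat5b 1.31-fold lower. The Il2rg call did not hold without replicate 1 or with scaling by library size alone. That made 5 members called at pH 7.4 (3 higher, 2 lower), where 80.4% of all tested genes were called (39.3% higher, 41.1% lower), and 6 at pH 7 (4 higher, 2 lower), where 77.2% were (37.6% higher, 39.5% lower). At pH 6.6 the number was 4 (2 higher, 2 lower) against a background of 23.7% (13.2% higher, 10.6% lower), with Il2ra 1.25-fold and Il2rb 1.36-fold higher and Jak1 1.42-fold and Stat5b 1.16-fold lower. Groups with and without IL-2 did not overlap in 5 members at pH 7.4, in 4 at pH 7 and in 4 at pH 6.6, against 65.8%, 64.5% and 11.9% of all tested genes.

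**Figure D2:**
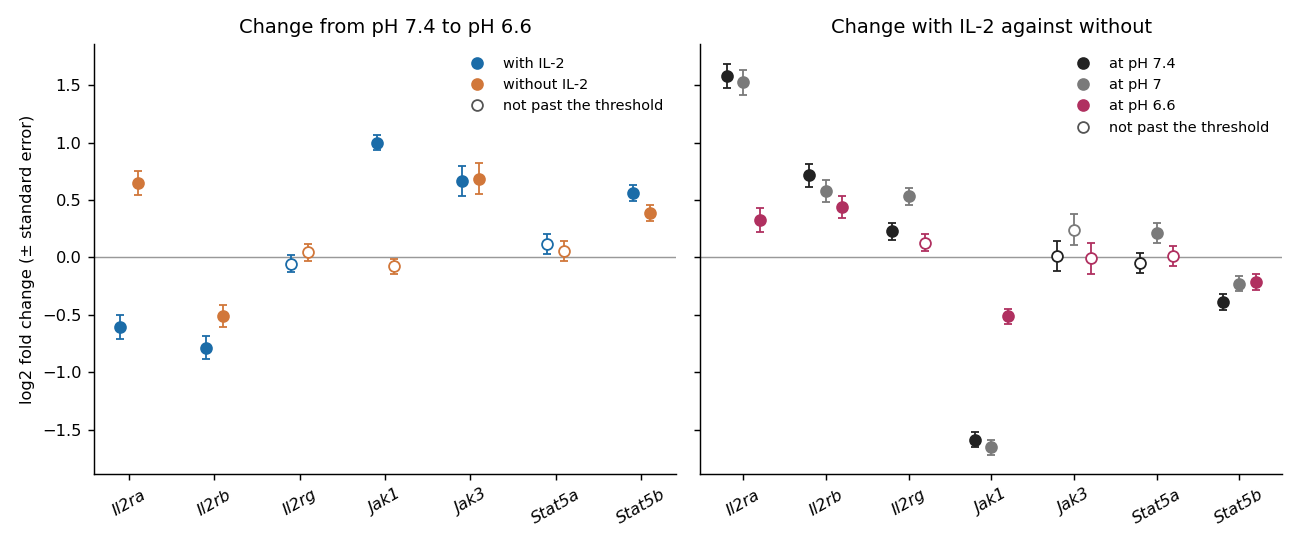
Log2 fold change of each of the 7 genes with its standard error, from edgeR's quasi-likelihood fit over 35 libraries, for pH 6.6 against pH 7.4 and for IL-2 against no IL-2; filled points passed an adjusted p of 0.05. Il2ra lies at -0.61 with IL-2 and at 0.65 without it for the same change of pH, Jak1 at 1.00 and -0.08, while Il2rb, Jak3 and Stat5b lie on the same side of 0 in both media.

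Il2ra (ENSMUSG00000026770; GRCm38 chr2:11642807-11693193, plus strand) encodes the alpha chain. With IL-2 at pH 7.4 its level was 539, 544, 565, 542 and 555 CPM in replicates 1 to 5, and at pH 6.6 it was 387, 350.3, 394, 334 and 342 CPM. Every library at pH 6.6 was below every library at pH 7.4, and the log2 fold change was -0.61 (SE 0.105, edgeR's adjusted p = 4.65e-06), lower in 5 of 5 pairs. Without IL-2 the level was 216, 191, 176, 191 and 146 CPM at pH 7.4 and 302, 318, 328, 244 and 255 CPM at pH 6.6. Here every library at pH 6.6 was above every library at pH 7.4, with a log2 fold change of 0.65 (SE 0.106, edgeR's adjusted p = 2.52e-06). The interaction, the pH 6.6 response with IL-2 minus that without, was -1.26 on the log2 scale (SE 0.149, edgeR's adjusted p = 6.91e-09), with this sign in 5 of 5 pairs. The difference that IL-2 made thus went from a log2 fold change of 1.58 (SE 0.108, edgeR's adjusted p = 5.15e-15) at pH 7.4 to 0.32 (SE 0.105, adjusted p = 0.0234) at pH 6.6. The call at pH 6.6 was lost without replicate 3 (0.34, edgeR's adjusted p = 0.0597), without replicate 4 (0.30, 0.0850) and without replicate 5 (0.30, 0.0632).

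Il2rb (ENSMUSG00000068227; chr15:78479256-78495271, minus strand), the signalling beta chain, was lower at pH 6.6 in both media. With IL-2 it was at 869.8, 1211, 1057, 1164 and 1028 CPM at pH 7.4 and at 558, 609, 504, 729.7 and 680.2 CPM at pH 6.6. The groups were apart, and the log2 fold change was -0.79 (SE 0.0965, edgeR's adjusted p = 8.43e-09). Without IL-2 it was at 540.2, 652, 661, 661 and 725 CPM at pH 7.4 and at 399, 455, 434, 485 and 498 CPM at pH 6.6, again with no overlap and a log2 fold change of -0.51 (SE 0.0962, edgeR's adjusted p = 2.45e-05). The interaction was -0.27 and did not pass the test (edgeR's adjusted p = 0.0738), but it did without replicate 5 (-0.34, edgeR's adjusted p = 0.0389). Il2rb was higher with IL-2 at each pH, with a log2 fold change of 0.71 at pH 7.4, 0.58 at pH 7 and 0.44 at pH 6.6 (edgeR's adjusted p = 4.65e-08, 2.11e-06 and 0.000917). The mean at pH 6.6 with IL-2, 616 ± 91.0 CPM (SD, n = 5), lay beside the mean at pH 7.4 without IL-2, 648 ± 66.8 CPM (SD, n = 5), and these groups overlapped (edgeR's adjusted p = 0.530).

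Il2rg (ENSMUSG00000031304; chrX:101264378-101268255, minus strand), the common gamma chain, was the steadiest of the receptor chains. Its group means lay between 241 ± 19.4 CPM (pH 7 without IL-2) and 348 ± 16.4 CPM (pH 7 with IL-2; SD, n = 5 each). At pH 7.4 with IL-2 it was at 326, 298, 302, 309 and 319 CPM and at pH 6.6 with IL-2 at 282, 275, 292, 339 and 311 CPM, so the groups overlapped, with a log2 fold change of -0.06 (SE 0.0751, edgeR's adjusted p = 0.506). It was higher with IL-2 at pH 7, where the log2 fold change was 0.53 (edgeR's adjusted p = 1.30e-07), and at pH 7.4, where it was 0.23 (adjusted p = 0.00642). The call at pH 7.4 was lost without replicate 1 (0.09, edgeR's adjusted p = 0.261) and with scaling by library size alone (0.07, 0.386). Il2rg reads are less certain than those of the other chains, since 30.5% of its exon bases lie under Gm20489 on the same strand and 72.5% of its 50-base windows occur in no other annotated gene; Gm20489 itself had 2 counts at most in any library.

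Jak1 (ENSMUSG00000028530; chr4:101152367-101265282, minus strand), the kinase on the beta chain, moved furthest of the kinases. With IL-2 it was at 773, 919.6, 905, 788 and 816 CPM at pH 7.4 and at 1469.8, 1874, 2018, 1450.2 and 1622 CPM at pH 6.6. The groups were far apart, with a log2 fold change of 1.00 (SE 0.0659, edgeR's adjusted p = 3.93e-15) and a rise in 5 of 5 pairs. Without IL-2 it was at 2363, 2601, 2813, 2389 and 2459 CPM at pH 7.4 and at 2242, 2475, 2573, 2207 and 2457 CPM at pH 6.6. These groups overlapped; the log2 fold change was -0.08 (SE 0.0652, edgeR's adjusted p = 0.296), with the negative sign in 5 of 5 pairs, and it passed the test when libraries were scaled by size alone (-0.23, edgeR's adjusted p = 0.00230). The interaction was 1.08 on the log2 scale (SE 0.0925, edgeR's adjusted p = 5.55e-12), with this sign in 5 of 5 pairs. IL-2 went with less Jak1 mRNA at each pH, with a log2 fold change of -1.59 at pH 7.4, -1.65 at pH 7 and -0.51 at pH 6.6 (edgeR's adjusted p = 1.66e-20, 1.09e-20 and 3.99e-07).

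Jak3 (ENSMUSG00000031805; chr8:71676296-71690575, plus strand), the kinase on the gamma chain, was higher at pH 6.6 in both media, while its difference with IL-2 passed no test. With IL-2 it was at 179.9, 267, 248.6, 309 and 300.2 CPM at pH 7.4 and at 336, 436, 374, 493 and 418 CPM at pH 6.6, with no overlap and a log2 fold change of 0.67 (SE 0.133, edgeR's adjusted p = 3.89e-05). Without IL-2 it was at 203, 251, 281, 232 and 316 CPM at pH 7.4 and at 334, 388, 425, 486 and 435 CPM at pH 6.6, again apart, with a log2 fold change of 0.69 (SE 0.133, edgeR's adjusted p = 3.65e-05). The interaction was -0.02 (edgeR's adjusted p = 0.927). The difference that IL-2 made was 0.01 at pH 7.4, 0.24 at pH 7 and -0.01 at pH 6.6 on the log2 scale, and none passed the test (edgeR's adjusted p = 0.932, 0.0946 and 0.971). Its replicates spread more than those of the other members, with a median SD within groups of 0.256 on the log2 scale against 0.186 over all tested genes. Of its exon bases, 7.55% lie under Insl3 on the same strand. Insl3 had means of 2.26 CPM at pH 7.4 and 6.71 CPM at pH 6.6 with IL-2. The count tables set ambiguous reads apart from the genes, and how many Jak3 reads this overlap left out was not tested.

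The STAT5 genes lie side by side on chromosome 11 and encode closely related proteins, so some reads fit both. Of the 50-base windows, 91.5% of Stat5a and 89.0% of Stat5b occur in no other annotated gene, and 608 windows are shared between them. Stat5a (ENSMUSG00000004043; chr11:100859351-100885169, plus strand) had the narrowest range of the 7 genes between conditions, and its 35 libraries ran from 31.3 to 49.2 CPM. At pH 7.4 and pH 6.6 with IL-2 it had means of 39.1 ± 3.85 and 42.4 ± 4.45 CPM (SD, n = 5), with overlap and a log2 fold change of 0.12 (SE 0.0876, edgeR's adjusted p = 0.231). Stat5b (ENSMUSG00000020919; chr11:100780731-100850724, minus strand) was at 87.2, 93.97, 85.6, 89.7 and 85.8 CPM at pH 7.4 with IL-2 and at 117, 144, 129, 132 and 131 CPM at pH 6.6 with IL-2. No library overlapped, and the log2 fold change was 0.56 (SE 0.0686, edgeR's adjusted p = 7.35e-09).

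Without IL-2 Stat5b stood at 116, 115, 123, 103 and 122 CPM at pH 7.4 and rose to 145, 155, 148, 149 and 161 CPM at pH 6.6. The groups were apart, with a log2 fold change of 0.39 (SE 0.0682, edgeR's adjusted p = 8.63e-06), and the interaction of 0.17 did not pass the test (edgeR's adjusted p = 0.113). IL-2 went with less Stat5b mRNA, with a log2 fold change of -0.39 at pH 7.4, -0.23 at pH 7 and -0.22 at pH 6.6 (edgeR's adjusted p = 5.34e-06, 0.00322 and 0.0195). The call at pH 6.6 was lost on leaving out replicate 1, 2, 3 or 4 (edgeR's adjusted p from 0.0505 to 0.151), and that at pH 7 on leaving out replicate 5 (-0.14, 0.0587). Stat5a with IL-2 against none was -0.05 at pH 7.4 and 0.02 at pH 6.6 on the log2 scale, and neither passed the test (edgeR's adjusted p = 0.640 and 0.916). At pH 7 it was 0.21 (edgeR's adjusted p = 0.0301), a call that was lost on leaving out replicate 1, 2 or 3.

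Between pH 7 and pH 7.4 with IL-2, edgeR's quasi-likelihood test with Benjamini-Hochberg adjustment and DESeq2 each called 0 of the 7 members, where edgeR called 19% of all tested genes; 3 members (Il2rg at a log2 fold change of 0.16, Jak3 at 0.31 and Stat5b at 0.17) had an unadjusted p under 0.05. A fit of only the groups compared called 4 members, and scaling by library size alone 2. Without IL-2 both tools called 0 members, 0 had an unadjusted p under 0.05, and 1.68% of all tested genes were called. The interaction of pH 7 and IL-2 gave 0 members by edgeR, 2 with an unadjusted p under 0.05 and 1 by DESeq2, against 4.79% of all tested genes. Between pH 6.6 and pH 7, in contrast, 6 members were called with IL-2 (3 higher, 3 lower), against 72.4% of all tested genes (32.5% higher, 40.0% lower). Without IL-2 6 were called (4 higher, 2 lower), against 66.6% (30.9% higher, 35.7% lower).

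In the step from pH 7 to pH 6.6 with IL-2, the log2 fold change was -0.53 for Il2ra, -0.77 for Il2rb, 0.95 for Jak1, 0.35 for Jak3 and 0.39 for Stat5b (edgeR's adjusted p = 3.96e-05, 1.68e-08, 2.36e-14, 0.0179 and 6.83e-06). Il2rg was called as well, at -0.22 (edgeR's adjusted p = 0.0105), but lost the call on leaving out replicate 1, 2 or 3. The Jak3 call was lost without replicate 4. In the same step without IL-2, the log2 fold change was 0.67 for Il2ra, -0.63 for Il2rb, 0.61 for Jak3 and 0.38 for Stat5b, with smaller calls for Il2rg (0.19, edgeR's adjusted p = 0.0290) and Jak1 (-0.19, 0.00974). The Jak1 call was lost without replicate 3 and without the replicate block (-0.19, edgeR's adjusted p = 0.0596), and the Il2rg call on leaving out replicate 1, 2, 3 or 4.

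Against the cells at 0 h, the members differed least after 24 h at pH 7.4 with IL-2, where 2 of 7 were called against 59.9% of all tested genes. Both were lower: Il2rb by a log2 fold change of -0.31 (edgeR's adjusted p = 0.00635; lost without replicate 3) and Jak3 by -0.67 (adjusted p = 6.80e-05). At pH 7 with IL-2 3 members were called (54.3% of all tested genes), at pH 6.6 with IL-2 5 (68.5%), and without IL-2 7 at pH 7.4 (75.2%), 6 at pH 7 (75.4%) and 6 at pH 6.6 (75.1%). These comparisons share the 0 h libraries. With replicate 5 left out, whose 0 h library stood apart, the counts were 2, 4 and 5 with IL-2 and 6, 6 and 5 without, from pH 7.4 to pH 6.6.

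Il2ra at 0 h was at 432, 563, 597, 686 and 576 CPM, a wider range than any group at 24 h. It was lower at pH 6.6 with IL-2 (-0.66 on the log2 scale) and in all 3 groups without IL-2 (-1.64 at pH 7.4, -1.66 at pH 7 and -0.99 at pH 6.6). Jak1 at 0 h was at 691, 923, 909, 910.4 and 752 CPM, which overlapped the libraries at pH 7.4 with IL-2. It was higher by 1.01 at pH 6.6 with IL-2 and by 1.59, 1.71 and 1.52 at pH 7.4, pH 7 and pH 6.6 without IL-2 on the log2 scale. Il2rb was lower than at 0 h in all 6 groups at 24 h, from -0.31 at pH 7.4 with IL-2 to -1.53 at pH 6.6 without IL-2.

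The order of the 7 conditions differed by gene. For Il2ra, 0 h and the IL-2 groups at pH 7.4 and pH 7 came first without a tested difference between neighbours, followed by pH 6.6 with IL-2, pH 6.6 without IL-2, and then pH 7.4 and pH 7 without IL-2, which did not differ. For Jak1 the order ran nearly the other way: the 3 groups without IL-2 came first with no tested difference between neighbours, pH 6.6 with IL-2 stood alone below them, and the other IL-2 groups and 0 h came last without a tested difference. Jak3 had both pH 6.6 groups and 0 h on top, and Stat5b had pH 6.6 without IL-2 above pH 6.6 with IL-2 above the rest. For Il2rg and Stat5a no neighbours in the order differed. The ranges between the highest and lowest condition were 1.65 for Il2ra, 1.52 for Il2rb, 1.71 for Jak1, 0.78 for Stat5b, 0.69 for Jak3, 0.53 for Il2rg and 0.30 for Stat5a on the log2 scale, with a median of 1.29 over all tested genes. The range of Stat5a stood at percentile 1.74 of all tested genes.

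The setting that combined acid and IL-2 was also placed beside the one with neither. At pH 6.6 with IL-2 against pH 7.4 without IL-2, 5 members were called (64.4% of all tested genes). Il2ra (0.98), Jak3 (0.68), Il2rg (0.17) and Stat5b (0.17) were higher and Jak1 (-0.59) was lower on the log2 scale, so Jak1 and Il2ra at pH 6.6 with IL-2 lay between their levels at pH 7.4 with and without the cytokine. The calls of Il2rg and Stat5b were both lost with library size only, the looser filter and only the groups compared. The Il2rg call was also lost without the replicate block (0.17, edgeR's adjusted p = 0.0646) and on leaving out replicate 1, 3, 4 or 5, and the Stat5b call on leaving out replicate 2 or 4.

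Levels per length let the chains be compared within a library. The full exon length was used, though 30.5% of Il2rg and 7.55% of Jak3 exon bases lie under another gene on the same strand. The effect of this on their levels per length was not tested. In CPM per kilobase of exon, at pH 7.4 with IL-2 the means were 96.2 for Il2ra, 248.6 for Il2rb, 130 for Il2rg, 116 for Jak1, 48.7 for Jak3, 5.49 for Stat5a and 15.97 for Stat5b. At pH 7.4 without IL-2 they were 32.3, 151, 111, 349, 47.9, 5.65 and 20.9 in the same order. At pH 6.6 with IL-2 Il2rb was at 144 and Jak1 at 233. Per length, Il2rb was thus the most abundant of the 7 at pH 7.4 with IL-2, and Jak1 was so at pH 7.4 without IL-2 and in the acid medium with it.

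**Figure D3:**
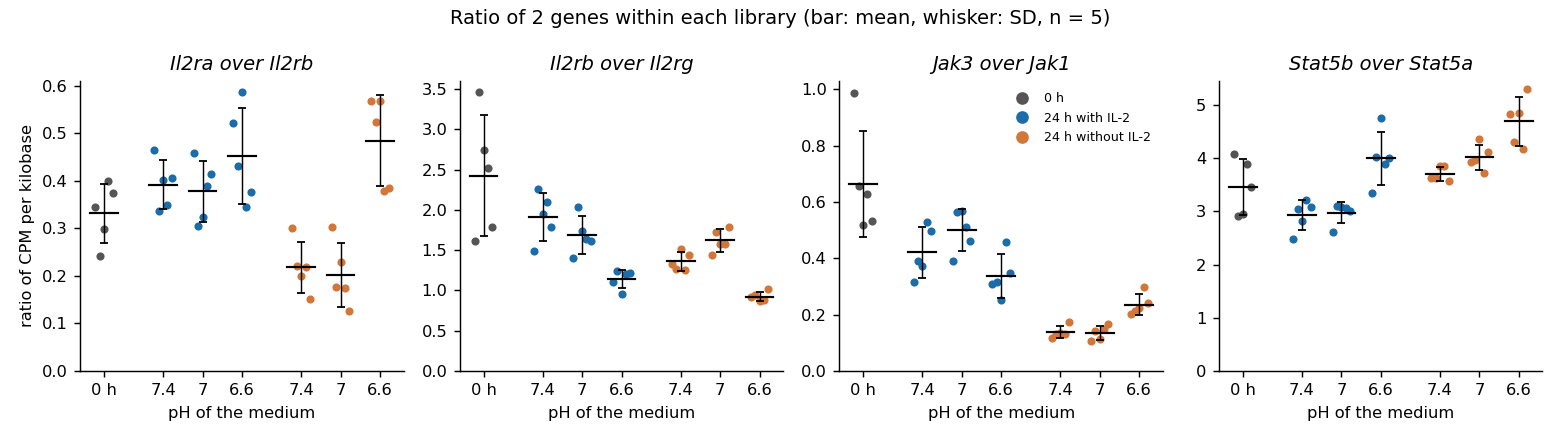
Ratio of 2 genes in CPM per kilobase within each library (linear axis from 0) against the pH of the medium; points are libraries, bars means and whiskers SDs of 5 replicates. The ratio of Il2ra to Il2rb without IL-2 goes from 0.218 at pH 7.4 to 0.485 at pH 6.6, while that of Jak3 to Jak1 with IL-2 lies at 0.421 and 0.336 and without IL-2 at 0.137 and 0.235.

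The ratio of alpha to beta chain was 0.392 ± 0.0511 at pH 7.4 and 0.452 ± 0.101 at pH 6.6 with IL-2 (SD, n = 5), with overlap between the groups. The exact two-sided permutation test gave p = 0.278 (0.317 adjusted over 64 ratio tests, which were added after the data were seen), so a shift in this ratio was not detected while both chains fell. Without IL-2 the ratio was 0.218 ± 0.0537 at pH 7.4 and 0.485 ± 0.0964 at pH 6.6, a log2 difference of 1.16 with an exact permutation p = 0.00794, the smallest that 5 against 5 libraries allow (0.0181 adjusted). The ratio of beta to gamma chain fell by 0.74 with IL-2 and by 0.56 without on the log2 scale, each with the same smallest exact permutation p = 0.00794. Jak3 over Jak1 did not pass with IL-2, 0.421 ± 0.0898 at pH 7.4 against 0.336 ± 0.0772 at pH 6.6 (exact permutation p = 0.119), although it was lower at pH 6.6 in 5 of 5 replicate pairs. An exact test that flips the signs of the 5 pair differences, which cannot go below 0.0625, gave p = 0.0625 for this ratio. It gave the same p for each ratio of this paragraph that had the smallest permutation p, so by pairs none of them passed 0.05. Without IL-2 Jak3 over Jak1 rose by 0.77 on the log2 scale (exact permutation p = 0.00794). Stat5b over Stat5a was 2.93 ± 0.290 at pH 7.4 and 4.002 ± 0.498 at pH 6.6 with IL-2 (exact permutation p = 0.00794).

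The genes with the most similar pattern over the 7 conditions were named by the root mean square difference between centred mean log2 CPM, among 9000 genes. For Il2ra they were Tnk2 (0.0621), Rpl10 (0.102) and Ptger4 (0.103), and for Il2rb Ubash3b (0.0626), 2410002F23Rik (0.0683) and Coro1a (0.0741). For Il2rg they were Ctsd, Purb and Rab10, for Jak1 Bcas3, Klhl6 and Tnrc6a, and for Jak3 Ech1, Eef1a1 and Tfeb. For Stat5a they were Myl12b, Mapk9 and Mospd2, and for Stat5b Sp3, Zbtb25 and Otud7b. The difference between Il2ra and Il2rb was 0.470 and that between Il2ra and Jak1 1.39. No member was among the 3 nearest genes of another.

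**Figure D4:**
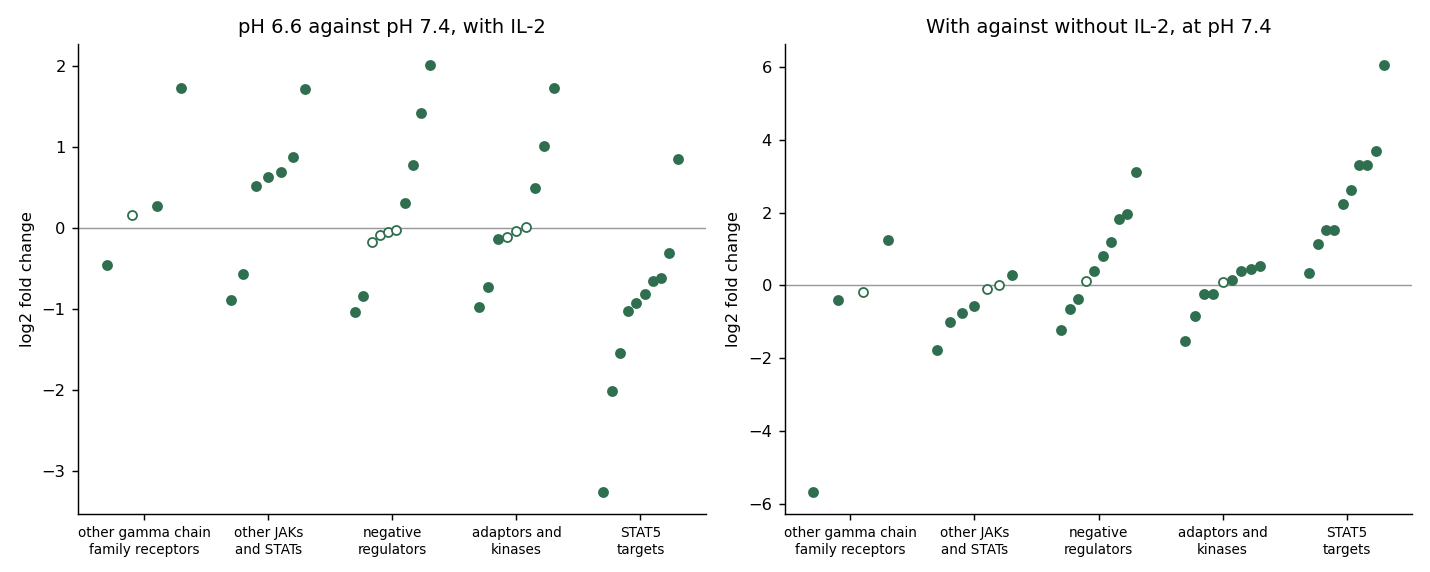
Log2 fold change of each tested gene of 5 lists around the receptor, for pH 6.6 against pH 7.4 with IL-2 and for IL-2 against no IL-2 at pH 7.4; each point is a gene, filled where called at an adjusted p of 0.05. Of 10 STAT5 target genes, 9 lie below 0 for the acid medium and 10 lie above 0 for IL-2, Gzmb furthest at -3.27 and 6.05.

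Around the members, the ligand Il2 itself had little mRNA: its libraries held 0 to 8 counts and it was not tested. Il15, whose product signals through the same beta and gamma chains, had 0.0315 CPM at pH 7.4 with IL-2, 0.944 CPM at pH 6.6 with IL-2, and without IL-2 it had 1.67 CPM at pH 7.4. Of 5 other receptor chains that pair with the common gamma chain, 4 were tested. In acid medium with IL-2 2 were called higher, 1 lower and 1 did not pass, against 35.4% of all tested genes higher and 40.9% lower. Il7r, the alpha chain of the IL-7 receptor, rose from 1.90 to 6.28 CPM (log2 fold change 1.72, edgeR's adjusted p = 1.08e-09), and at pH 7.4 it was at 92.4 CPM without IL-2 (IL-2 against none -5.68, edgeR's adjusted p = 4.02e-23).

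Of the 7 other JAK and STAT genes, 5 were called higher and 2 lower at pH 6.6 with IL-2, with a median log2 fold change of 0.63, against 35.4% of all tested genes higher and 40.9% lower. Stat4, the main STAT behind the IL-12 receptor, went from 54.5 ± 7.90 to 179.7 ± 38.0 CPM (SD, n = 5; log2 fold change 1.71, edgeR's adjusted p = 3.40e-17). With IL-2 at pH 7.4, 1 of these 7 was higher, 4 were lower and 2 did not pass, against 39.3% and 41.1% of all tested genes. Stat4 was then at -1.78 (edgeR's adjusted p = 5.97e-18). Of 10 negative regulators of the pathway, 4 were higher, 2 lower and 4 did not pass at pH 6.6 with IL-2, and 8 were higher and 2 lower at pH 6.6 without IL-2. The shares of all tested genes were 35.4% higher and 40.9% lower with IL-2, and 31.6% and 35.4% without. Socs3, an inhibitor of JAK kinases, rose from 16.1 to 66.2 CPM in acid medium with IL-2 (log2 fold change 2.01, edgeR's adjusted p = 8.98e-11). Cish, a feedback inhibitor that STAT5 is known to switch on, was at 422 CPM with and 49.9 CPM without IL-2 at pH 7.4 (log2 fold change 3.10, edgeR's adjusted p = 4.00e-16).

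Of 9 adaptors and kinases that act below the receptor, 3 were higher, 3 lower and 3 did not pass at pH 6.6 with IL-2, and 4 were higher, 4 lower and 1 did not pass with IL-2 at pH 7.4. The shares of all tested genes were 35.4% higher and 40.9% lower in the first comparison, and 39.3% and 41.1% in the second. Gab2, a docking adaptor, rose from 7.54 to 25.2 CPM in acid medium with IL-2 (log2 fold change 1.73, edgeR's adjusted p = 1.67e-15) and was lower with IL-2 at pH 7.4 (-1.54, edgeR's adjusted p = 1.97e-14).

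The list of 10 genes known as STAT5 targets spans survival, cell cycle and cytotoxic genes, and 2 of them, Gzmb and Prf1, are also in the CTL marker list. Like the other lists it was chosen with earlier results of these data known, so its counts are a description only. With IL-2 at pH 7.4 all 10 were called higher (median log2 fold change 2.43), against 39.3% of all tested genes. At pH 6.6 with IL-2 9 were called lower and 1 higher (median -0.87), against 40.9% lower and 35.4% higher. Without IL-2 the same change of pH gave 4 higher, 5 lower and 1 that did not pass (median -0.16), against 31.6% higher and 35.4% lower. In the interaction 7 were called, all of them lower, and 3 did not pass, where 67.0% of all tested genes were called in either direction. The share of all tested genes called lower there is not given here. At pH 6.6 9 of the 10 were higher with IL-2 (median 1.26), against 13.2% of all tested genes. Gzmb, the protease granzyme B of cytotoxic granules, was at 7796 ± 935 CPM at pH 7.4 and at 845 ± 320 CPM at pH 6.6 with IL-2 (SD, n = 5; log2 fold change -3.27, edgeR's adjusted p = 5.08e-17). Pim1, a survival kinase named here after its value was seen, was the exception that rose at pH 6.6 with IL-2 (log2 fold change 0.85, edgeR's adjusted p = 1.12e-11).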

How the data were processed

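RNA sequencing of 35 CTL libraries (TruSeq stranded mRNA, single reads by Illumina sequencing) was analysed from the raw read counts per gene that the authors deposited for each library. The submitters' processing notes name cutadapt 1.8, STAR 2.5.2b, HTSeq 0.6.1 and the build GRCm38; the annotation and the strand setting of the counting are not given in the sources used here. Ensembl identifiers were matched to symbols of GENCODE M21, which named 48349 of 48709 genes. Counts were normalized by TMM and fitted in edgeR 4.0.16 (R 4.3.3) with the robust quasi-likelihood test over all 35 libraries, with group and replicate number as terms, for 13819 genes that passed filterByExpr with a minimum count of 10, and Benjamini-Hochberg adjustment over these. CPM values use TMM library sizes, and log2 CPM a prior count of 2. Per-length levels divide CPM by the merged exon length. The 7 members and the gene lists were chosen with earlier results of these data known. The genes named from the lists are those with the largest absolute log2 fold change among the called genes of each list in pH 6.6 against pH 7.4 with IL-2 and in IL-2 against none at pH 7.4; exceptions are stated.

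Libraries held 16721319 to 34033340 counted reads. The series states that CTLs of 5 biological replicates went to each condition, which is the source of the pairing by number: 95 of 105 pairs of libraries with the same number in different groups had deviations from their group means that correlated above 0.1 (median 0.273, against -0.0745 over the other 420 pairs). A chi-square test of the counts, over 70 pairs of libraries within groups, gave at least 6.65 times its degrees of freedom, so no 2 libraries of 1 group were duplicates; pairs across groups were not compared. The procedure was tested on simulated data, with 200 of 13371 genes changed in pH 6.6 with IL-2. For pH 6.6 against pH 7.4 with IL-2 it made 197 calls, of which 184 were changed genes. In the measured data 76.3% of tested genes were called in this comparison. The simulation changed far fewer, with a common spread for all genes, so it cannot show how the procedure does there. Alternatives were RLE normalization, library size only, DESeq2 1.42.0, a looser filter (a count of 1 in any library), a stricter filter (10 counts in every library), only the groups compared, no replicate block, and leaving out each replicate. Ratios were compared by exact permutation tests (scipy 1.17.1), unpaired and by replicate pair, both added after the data were seen. Sequences and promoters are from RefSeq on GRCm38.p6.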

Additional observations from a re-analysis of the deposited data

Results flagged for a closer look

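Dixon's test over the 49 sets of 5 replicates (7 genes in 7 groups) marked 0 libraries, where chance marks about 1 set in 20. Both results listed here were picked out because the response to pH 6.6 with IL-2 differed from that without it by the interaction term. For Il2ra the interaction was -1.26 on the log2 scale (edgeR's quasi-likelihood test, adjusted p = 6.91e-09): the gene was lower at pH 6.6 with IL-2 in 5 of 5 pairs and higher without IL-2. For Jak1 it was 1.08 (edgeR's adjusted p = 5.55e-12): the gene rose at pH 6.6 with IL-2 in 5 of 5 pairs and did not pass the test without IL-2. The interaction was called for 67.0% of all tested genes. The share of count entries outside genes moved with the same conditions. This share had group medians of 4.33% at pH 7.4 and 7.86% at pH 6.6 with IL-2, and of 9.43% and 7.68% without IL-2. Its part in both results was not tested.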

How the results depend on the processing

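Of 1056 values of single members under an alternative, 935 kept their direction and their side of the threshold, 75 lost a call, 14 gained one and 32 changed sign, all of them uncalled. The cause was not tested. Without the replicate block 68 of the 72 calls of members over all comparisons were kept, 0 were gained and 4 were lost, namely Jak3 (pH 7 with IL-2 against 0 h, -0.33, edgeR's adjusted p = 0.0742), Stat5a (pH 7.4 without IL-2 against 0 h, 0.19, 0.0805), Jak1 (pH 6.6 against pH 7 without IL-2, -0.19, 0.0596) and Il2rg (pH 6.6 with IL-2 against pH 7.4 without, 0.17, 0.0646). The number of members called between pH 7 and pH 7.4 with IL-2 went from 0 to 2 with library size only, to 4 with only the groups compared and to 0 to 2 on leaving out a replicate. For pH 6.6 with IL-2 against pH 7.4 without it went from 5 to 3 with library size only, the looser filter or only the groups compared, and to 3 to 4 on leaving out a replicate. The interaction of pH 6.6 and IL-2 went from 2 to 4 with library size only, and that of pH 7 from 0 to 1 with DESeq2 and with only the groups compared. Leaving out a replicate gave 2 to 3 members in place of 4 for IL-2 at pH 6.6 (2 without replicate 3 or 4), and 1 to 2 in place of 2 for pH 7.4 with IL-2 against 0 h (1 without replicate 3).

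Signs changed for small differences. For pH 6.6 against pH 7.4 with IL-2, Il2rg (-0.06) was 0.0038 with RLE, 0.0197 with library size only, 0.0039 with DESeq2 and 0.0148 with only the groups compared, and -0.10 to 0.0519 on leaving out a replicate. Without IL-2, library size only gave -0.11 for Il2rg (0.04) and -0.10 for Stat5a (0.05; -0.0367 to 0.12 on leaving out a replicate). For IL-2 at pH 7.4, Jak3 (0.01) was -0.15 with library size only and -0.0355 with the stricter filter (-0.0823 to 0.0842 on leaving out a replicate), and Stat5a (-0.05) ran from -0.15 to 0.0319. For IL-2 at pH 6.6, Jak3 (-0.01) was 0.0032 with RLE, 0.0611 with library size only, 0.0032 with DESeq2 and 0.0294 with only the groups compared (-0.0159 to 0.0301), and Stat5a (0.02) ran from -0.0055 to 0.0579. For the interaction of pH 6.6 and IL-2, Il2rg (-0.10) was 0.13 with library size only (-0.14 to 0.0477), Jak3 (-0.02) was 0.21 with library size only and 0.0323 with the stricter filter (-0.0541 to 0.0664), and Stat5a (0.06) ran from -0.0374 to 0.17.

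Scaling by library size only moved the median of all genes from -0.03 to -0.19 for pH 6.6 against pH 7.4 without IL-2, from -0.04 to -0.20 for IL-2 at pH 7.4 and from 0.04 to 0.27 for the interaction of pH 6.6 and IL-2. With it the share of calls that were higher went from 47.2% to 34.7% for pH 6.6 against pH 7.4 and from 46.4% to 32.7% for pH 6.6 against pH 7 without IL-2, from 48.2% to 65.7% for pH 7 against pH 7.4 with IL-2, from 55.5% to 74.6% for IL-2 at pH 6.6, and from 51.1% to 62.8% and 45.8% to 60.8% for the interactions of pH 6.6 and pH 7. The number of genes called between pH 7 and pH 7.4 with IL-2 was 2623, and 4388 with only the groups compared or 1660 without the block; without IL-2 it was 232, 942 and 56. On leaving out a replicate these ran from 1283 (without replicate 3; 1374 without replicate 2) to 2425, and from 35 (without replicate 2; 90, 141 and 154 without replicates 3, 4 and 5) to 332. For IL-2 at pH 6.6 it was 3278, and 5369 with only the groups compared or 2119 without replicate 4. For the interaction of pH 7 and IL-2 it was 662, and 1007 with DESeq2, 326 with the looser filter, 1632 with only the groups compared and 177 without the block, and 98 (without replicate 3; 101, 304 and 378 without replicates 2, 4 and 5) to 711 on leaving out a replicate. The lowest count of a member in any library was 771, for Stat5a.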
